A study of Mus musculus with 8 samples.

Results

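The genes described here are 7 genes of the atrial heart muscle, Myl7, Myl4, Sln, Bmp10, Dkk3, Mybphl and Fgf12, of 25929 genes listed for 8 mouse heart libraries. They were chosen from a list of atrial-enriched genes with the FPKM values of these same 8 libraries known, so their levels and the differences between groups are given as a description. The fit over all genes includes them, and its calls for them are printed but support nothing here. The atria and ventricles of the heart carry different versions of several muscle proteins. In the mouse, the light chains Myl7 and Myl4 are built into the atrial myosin in the places that Myl2 and Myl3 take in the ventricle, and sarcolipin (Sln) holds back the calcium pump of atrial muscle as phospholamban (Pln) does in the ventricle. RNA of these genes is therefore used as a mark of atrial tissue or of an atrial programme in a heart sample. In RNA from a mixture of cells, fewer cells of a type and less RNA per cell cannot be told apart.

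The study set fat-1 transgenic mice, which carry a C. elegans desaturase that turns n-6 into n-3 polyunsaturated fatty acids, beside wild-type (WT) littermates. Mice aged 3 months were given transverse aortic constriction (TAC), which narrows the aorta and loads the left ventricle with pressure, or a sham operation. WT mice made up the groups WT-Sham and WT-TAC, and transgenic mice Fat1-Sham and Fat1-TAC, with 2 libraries in each of the 4. A digit after the group name (WT-TAC1, WT-TAC2) gives the replicate. The labels give C57BL/6 as the strain of the WT groups and Fat-1 as that of the others, and the fat-1 mRNA itself was not analysed here. The labels call the tissue ventricular, whereas the methods name whole hearts.

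Library depth, recovered from the values, lay between 14163994 and 21218331 fragments. Ventricular genes were abundant in every library, with Myl2 between 5244 and 14851 FPKM (fragments scaled to transcript length and library depth). The WT-TAC1 library stood apart. It had the lowest summed level of 15 general cardiomyocyte genes, 24143 FPKM against 43074 to 55635 in the other libraries, and held 4 thymocyte genes at a summed 803 FPKM, against 0.311 or less elsewhere. For all 6 genes of club and airway cells, the 2 highest libraries were those of WT-TAC.

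Upstream sequences are shown for 3 of the genes: Myl7 and Mybphl, which rose and fell together between libraries, and Bmp10, which departed from the other 6. That of Nppa, the gene outside the 7 whose level followed them most closely, is shown as well. RefSeq windows (GRCm38.p6) were at hand for 5 of the 7 genes, and not for Sln and Dkk3. Each line gives the 250 bases before the annotated start, read along the gene. The Myl7 window is chr11:5898783-5899032 on the minus strand, and the others lie on the plus strand at chr3:108364661-108364910 (Mybphl), chr6:87428744-87428993 (Bmp10) and chr4:148000472-148000721 (Nppa). Capitals mark matches, on either strand, to the GATA motif GATAA, the T-box motif GGTGTGA, the nuclear receptor half-site AGGTCA, the CArG box and the MEF2 box. The motifs were searched as plain letters and a match is not a site of binding.
Myl7: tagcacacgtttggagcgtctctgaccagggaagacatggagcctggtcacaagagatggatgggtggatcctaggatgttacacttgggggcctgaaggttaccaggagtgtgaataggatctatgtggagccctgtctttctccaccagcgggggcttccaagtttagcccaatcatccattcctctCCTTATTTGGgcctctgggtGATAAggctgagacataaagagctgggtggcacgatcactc
Mybphl: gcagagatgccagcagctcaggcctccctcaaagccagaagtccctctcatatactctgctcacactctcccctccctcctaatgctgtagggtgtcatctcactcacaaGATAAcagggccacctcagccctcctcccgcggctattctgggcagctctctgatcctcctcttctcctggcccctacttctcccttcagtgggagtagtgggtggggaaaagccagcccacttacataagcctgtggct
Bmp10: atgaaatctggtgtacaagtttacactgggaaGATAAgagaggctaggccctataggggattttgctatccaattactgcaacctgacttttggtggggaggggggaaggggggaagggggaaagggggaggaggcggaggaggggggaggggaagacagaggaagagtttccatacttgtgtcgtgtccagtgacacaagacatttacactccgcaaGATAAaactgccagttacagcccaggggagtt
Nppa: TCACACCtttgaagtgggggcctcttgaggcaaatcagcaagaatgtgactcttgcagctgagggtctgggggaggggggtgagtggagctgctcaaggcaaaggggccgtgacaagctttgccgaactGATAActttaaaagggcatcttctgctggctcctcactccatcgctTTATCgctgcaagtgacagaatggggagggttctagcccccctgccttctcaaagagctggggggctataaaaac
The Myl7 window held 1 GATA match at positions -41 to -37 and 1 CArG box at -61 to -52, counted back from the start. The Mybphl window held 1 GATA match, at -140 to -136. The Bmp10 window held 2 GATA matches, at -218 to -214 and at -32 to -28. The Nppa window held 2 GATA matches, at -121 to -117 and at -75 to -71, and 1 T-box match at -250 to -244. The Myl4 window held no match to any of the 5 motifs, and of the 4 windows of Fgf12, 1 held a MEF2 box and 1 a nuclear receptor half-site. The windows of Myl4 and Fgf12, none with a GATA match, are not printed. The matches did not overlap one another. Of all 32851 windows of this length, 22.6% held the GATA motif, 3.33% the T-box motif, 14.0% the nuclear receptor half-site, 1.47% a CArG box and 2.92% a MEF2 box, so that a GATA match alone was common.

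Myl7 (ENSMUSG00000020469, chr11:5896637-5898782 in GRCm38, minus strand) encodes the atrial regulatory light chain of myosin and was the most abundant of the 7 in every library. Its level was 456 FPKM in WT-Sham1 and 1945 in WT-Sham2, 1035 and 1097 in WT-TAC1 and WT-TAC2, 602 and 9.62 in Fat1-Sham1 and Fat1-Sham2, and 18.3 and 12.7 in Fat1-TAC1 and Fat1-TAC2. High values were thus found in all 4 WT libraries and in 1 of the 2 Fat1-Sham libraries, and low values in the other Fat1-Sham library and both Fat1-TAC libraries. The mean of the WT-Sham libraries was 1200.4 ± 1052 (SD, n = 2), that of WT-TAC 1066 ± 43.7, that of the Fat1-Sham libraries 306 ± 419 and that of Fat1-TAC 15.5 ± 3.98. The low values were not at the limit of detection: Fat1-Sham2, the lowest, held 111 fragments of Myl7, and 3 fragments would have been 0.26 FPKM there.

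Myl4 (ENSMUSG00000061086, chr11:104550663-104595753, plus strand), the atrial essential light chain, lies on the same chromosome and gave the same picture. It was at 335 and 1189.6 FPKM in WT-Sham1 and WT-Sham2, at 834 and 844 in the WT-TAC libraries, at 380.2 in Fat1-Sham1, at 5.97 in Fat1-Sham2, and at 16.9 and 10.3 in the Fat1-TAC libraries. The order of the 8 libraries was the same as for Myl7. The WT-TAC mean of 839 ± 7.24 exceeded the WT-Sham mean of 762 ± 604 (n = 2 each), a difference well inside the spread of the WT-Sham libraries.

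Mybphl (ENSMUSG00000068745, chr3:108364911-108380057, plus strand) encodes a protein of the myosin-binding protein H family found in atrial and conduction muscle. It measured 27.1 and 118 FPKM in the WT-Sham libraries, 67.9 and 69.3 in the WT-TAC libraries, 37.3 in Fat1-Sham1, 0.601 in Fat1-Sham2, and 1.01 and 0.777 in the Fat1-TAC libraries. The 3 low libraries held 15, 24 and 18 fragments of it, and their 95% Poisson intervals, which cover counting error only, overlapped (0.336 to 0.991, 0.645 to 1.5 and 0.461 to 1.23 FPKM). Counting error alone therefore allowed no order among these 3 libraries.

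Sln (ENSMUSG00000042045, chr9:53850164-53854560, plus strand) encodes sarcolipin, the small membrane protein that binds the calcium pump. Its values were 126 and 408 FPKM in WT-Sham, 241 and 244 in WT-TAC, 141.5 in Fat1-Sham1, 1.13 in Fat1-Sham2, and 3.86 and 1.55 in Fat1-TAC. The 2 Fat1-Sham libraries differed 126-fold, and the 2 WT-Sham libraries 3.24-fold. Among the low libraries, Fat1-TAC1 (3.12 to 4.72 FPKM) lay above the counting intervals of the other two.

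Fgf12 (ENSMUSG00000022523, chr16:28160098-28753068, minus strand) encodes an intracellular FGF homologous factor that modulates voltage-gated sodium channels, and it was the least abundant of the 7 in 4 libraries, Bmp10 being so in the other 4. It was at 2.58 and 13.5 FPKM in WT-Sham, 7.52 and 7.94 in WT-TAC, 3.45 in Fat1-Sham1, 0.150 in Fat1-Sham2, and 0.210 and 0.162 in Fat1-TAC. The low values rested on 9, 12 and 9 fragments.

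Dkk3 (ENSMUSG00000030772, chr7:112116017-112159057, minus strand), a secreted protein of the Dickkopf family, had the narrowest range. It was at 20.0 and 76.4 FPKM in WT-Sham, 62.9 and 61.7 in WT-TAC, 46.6 in Fat1-Sham1, 2.48 in Fat1-Sham2, and 3.20 and 4.0 in Fat1-TAC. The highest value was 30.8 times the lowest for Dkk3, against 89.8 for Fgf12, 196 for Mybphl, 199 for Myl4, 202 for Myl7 and 363 for Sln.

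Bmp10 (ENSMUSG00000030046, chr6:87428994-87437677, plus strand) encodes a secreted ligand of the bone morphogenetic protein family that the adult mouse makes mainly in the right atrium, and it departed from the other 6. Its level was 8.63 and 0.0735 FPKM in the libraries WT-Sham1 and WT-Sham2, 45.7 and 28.6 in the WT-TAC libraries, 70.5 and 0.0797 in Fat1-Sham1 and Fat1-Sham2, and 0.0119 and 0.0123 in the Fat1-TAC libraries. The library with the highest level of the other 6 genes, WT-Sham2, thus held 7 fragments of Bmp10, as few as Fat1-Sham2, and the highest Bmp10 level was in Fat1-Sham1. The WT-Sham1 library held 549 fragments, and the ratio of WT-Sham1 to WT-Sham2 per unit of depth was 117 (95% exact interval 56.6 to 294, counting error only).

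**Figure D1:**
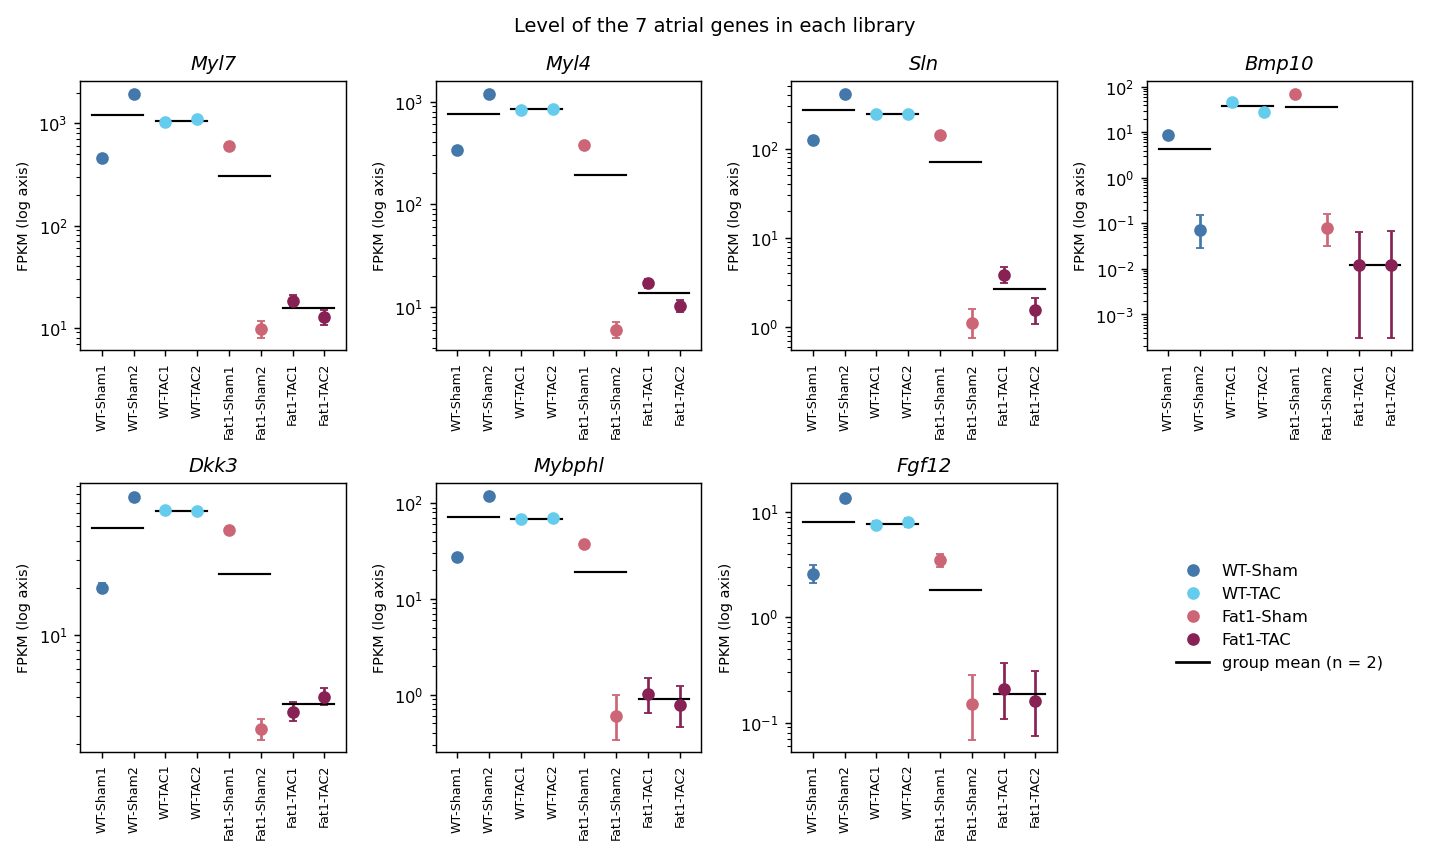
Level of each of the 7 atrial genes in FPKM (log axis, its range set for each gene) in the 8 libraries, with bars for the 95% Poisson interval of the fragments counted and lines for the group means of 2 libraries. Myl7 sits at 456 FPKM or more in 5 libraries and at 18.3 or less in Fat1-Sham2 and both Fat1-TAC libraries, and Bmp10 alone is also near 0 in WT-Sham2.

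Apart from Bmp10, the genes rose and fell together between libraries. An identical order of all 8 libraries was found for 5 of the 7 genes, Myl7, Myl4, Sln, Mybphl and Fgf12, running from WT-Sham2 through WT-TAC2, WT-TAC1, Fat1-Sham1, WT-Sham1, Fat1-TAC1 and Fat1-TAC2 to Fat1-Sham2. For Dkk3 the 2 WT-TAC libraries changed places, as did the 2 Fat1-TAC libraries. Pearson's r of log2(FPKM + 1) over the 8 libraries lay between 0.959 and 0.999 for the 15 pairs without Bmp10 and between 0.533 and 0.686 for the 6 pairs with it. These coefficients describe libraries that fall into a high and a low cluster, and the genes share libraries and depth, so no p-value was attached.

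Ratios within a library, taken between FPKM values and so per length, showed how closely the genes kept step. Mybphl was between 5.49% and 6.56% of Myl7 in all 8 libraries, although Myl7 itself ranged 202-fold. In Fat1-Sham2, Fat1-TAC1 and Fat1-TAC2 this ratio rested on 15, 24 and 18 fragments of Mybphl, too few to fix it so closely. Myl4 was between 61.2% and 92.5% of Myl7. Sln was between 21.0% and 27.6% of Myl7 in 6 libraries and at 11.7% in Fat1-Sham2 and 12.2% in Fat1-TAC2. Dkk3 went the other way, with between 3.93% and 7.74% of Myl7 in the WT libraries and Fat1-Sham1 but 25.8%, 17.5% and 31.5% in Fat1-Sham2, Fat1-TAC1 and Fat1-TAC2. Fgf12 was likewise at most 0.726% of Myl7 in the former libraries and at 1.56%, 1.14% and 1.27% in the latter. The latter values rested on 9, 12 and 9 fragments of Fgf12, against 163, 201 and 244 of Dkk3, so their counting error is wide. Bmp10 relative to Myl7 ranged from 0.00378% in WT-Sham2 to 11.7% in Fat1-Sham1. The atrial genes were not therefore a fixed fraction of one another, and the ratio with the least change was that of Mybphl to Myl7.

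Set beside the partner that fills the same place in ventricular or general heart muscle, the atrial genes ranged widely. Myl7 was 3.32% and 20.8% of Myl2, the ventricular regulatory light chain, in the WT-Sham libraries, 19.7% and 10.9% in the WT-TAC libraries, 5.20% in Fat1-Sham1, and 0.0774%, 0.123% and 0.0863% in Fat1-Sham2, Fat1-TAC1 and Fat1-TAC2. Myl4 ranged from 0.0981% to 33.3% of Myl3, the ventricular essential light chain. Sln ranged from 0.175% to 81.1% of Pln and from 0.0235% to 11.5% of Atp2a2, the calcium pump that both regulate. Mybphl ranged from 0.0635% to 16.8% of Mybpc3, the cardiac myosin-binding protein C. Fgf12 ranged from 0.381% to 33.5% of Fgf13, a related factor. The lowest of these ratios was in Fat1-Sham2 in each case. Myl2 itself was lowest in WT-TAC1, at 5244 FPKM, so the ratios of that library rest on a lower partner as well.

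**Figure D2:**
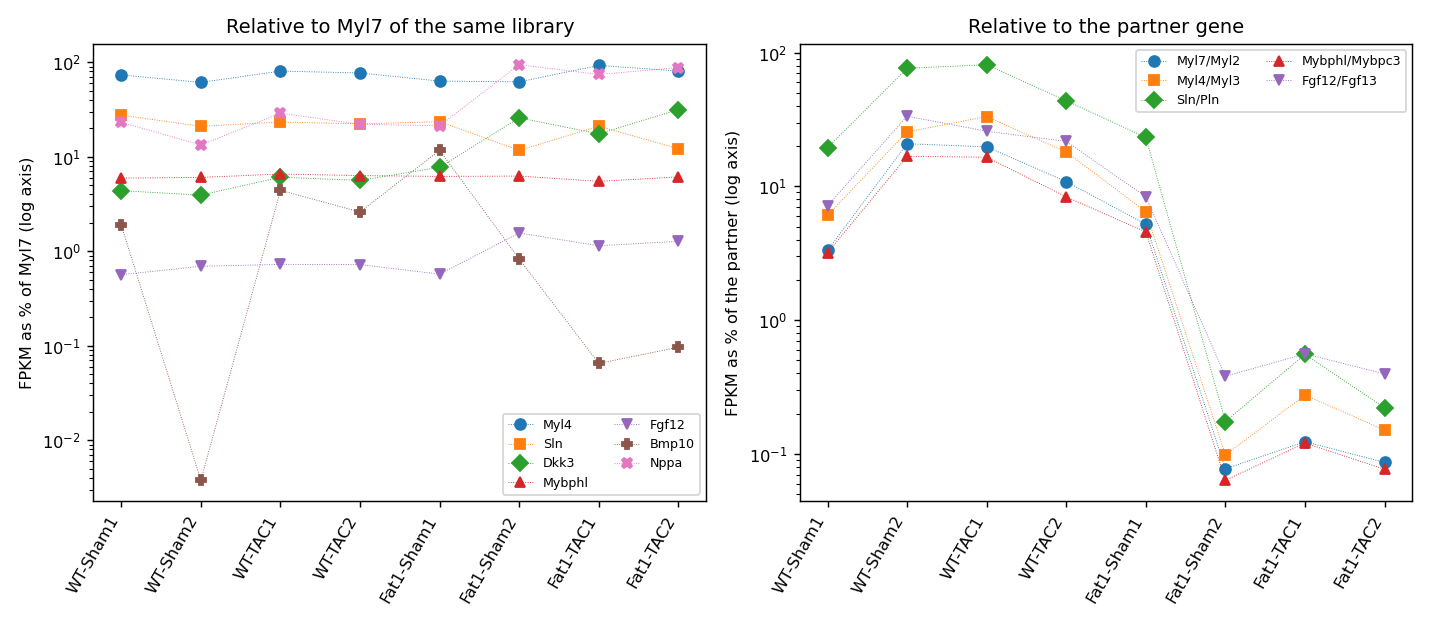
FPKM of the atrial genes and of Nppa as a percentage of Myl7 of the same library (left) and of 5 atrial genes as a percentage of a partner gene (right), on log axes for the 8 libraries. Dotted lines only join points of 1 gene. Mybphl stays between 5.49% and 6.56% of Myl7 on the left, with 15, 24 and 18 fragments of Mybphl in Fat1-Sham2, Fat1-TAC1 and Fat1-TAC2. On the right all 5 ratios are lowest in Fat1-Sham2.

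The effect of TAC in WT hearts was compared first. Of the 7 genes, 1 had WT-TAC libraries that did not overlap the WT-Sham libraries and lay above them (Bmp10, where 52.5% of the 14442 genes tested did so), and 6 overlapped. The mean FPKM of Bmp10 was 4.35 ± 6.05 (WT-Sham) against 37.1 ± 12.1 (WT-TAC, SD, n = 2 each). For the other 6 genes the WT-TAC libraries lay between the 2 WT-Sham libraries. The median difference of the 7 was 0.28 on the log2(FPKM + 1) scale, beside 0.39 for all genes tested. The median was -0.73 without WT-Sham1 and 1.31 without WT-Sham2, and -0.12 with median-of-ratios scaling, so its sign was not fixed. All 7 genes passed the filter on low values (1 FPKM or more in at least 2 libraries). In limma (Benjamini-Hochberg adjusted p under 0.1 and fold over 1.5) 0 of the 7 were called, beside 0.935% of all genes.

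Next, the fat-1 genotype was compared under sham surgery. In 7 of the 7 genes the libraries of Fat1-Sham and WT-Sham overlapped, whereas 32.0% of all genes had libraries that did not overlap in either direction. The log2 differences ran from -3.71 for Sln to 1.45 for Bmp10, with a median of -2.88, beside -0.02 for all genes. The Fat1-Sham libraries lay on both sides of WT-Sham1 for each gene. Without Fat1-Sham2 the median was -0.64, and without Fat1-Sham1 it was -5.17. In limma 0 of the 7 and 0% of all genes were called. Over all genes 180 had an unadjusted p under 0.05, and limma-voom on the recovered fragments also called 0.

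For TAC in fat-1 hearts, 6 of the 7 genes overlapped and 1, Bmp10, was lower in both Fat1-TAC libraries, while 48.3% of all genes did not overlap in either direction. Bmp10 had 1 fragment in each Fat1-TAC library against 7 in Fat1-Sham2, and the 95% intervals for counting error overlapped (0.0321 to 0.164 FPKM in Fat1-Sham2, up to 0.0664 and 0.0684 in Fat1-TAC), so these libraries cannot be ordered at this depth. The median log2 difference was -2.05 with all libraries, 0.40 without Fat1-Sham1 and -4.75 without Fat1-Sham2, beside 0.03 for all genes with all libraries. In limma 0 of the 7 were called, beside 0.00692% of all genes.

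The genotypes under TAC gave the widest gap. In 7 of the 7 genes both Fat1-TAC libraries lay below both WT-TAC libraries, which was so for 57.1% of all genes tested. The WT-TAC mean was 68.7 times the Fat1-TAC mean for Myl7, 61.7 for Myl4, 89.8 for Sln, 76.9 for Mybphl, 41.6 for Fgf12 and 17.3 for Dkk3. For Bmp10 the 6370 fragments of WT-TAC stood against 2 of Fat1-TAC, a ratio per depth of 3104 (95% exact interval 859 to 25638, counting error only). On the log2(FPKM + 1) scale, which understates the change of low genes, the differences were -6.11 for Sln, -6.03 for Myl7, -5.89 for Myl4, -5.20 for Mybphl, -5.20 for Bmp10, -3.79 for Dkk3 and -2.88 for Fgf12, with a median of -5.20 beside -0.40 for all genes. Leaving out WT-TAC1 gave a median of -5.22, and leaving out WT-TAC2 one of -5.53. In limma 0 of the 7 were called, beside 1.43% of all genes, with the spread shared by all 4 groups, and 7 with the 4 TAC libraries alone. Since the genes were chosen with values of these libraries known, nothing was read from these counts. With 2 libraries a group, exact permutation could reach no two-sided p smaller than 0.33 for any 1 gene.

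The spread between the 2 libraries of a group set these comparisons apart. Over all genes tested, the median absolute log2 difference between replicates was 0.21 for the WT-Sham pair, 0.50 for WT-TAC, 0.13 for the Fat1-Sham pair and 0.14 for Fat1-TAC. Over the 7 atrial genes it was 2.02, 0.03, 5.77 and 0.25 in that order. The sham groups were thus each split for these genes, Fat1-Sham by more than WT-Sham, whereas the WT-TAC libraries, which differed most over all genes, were nearly alike. In order of group means, WT-Sham and WT-TAC came first or second for 6 genes, Fat1-Sham next and Fat1-TAC last. For those 6 genes Fat1-Sham lay wholly below WT-TAC but overlapped WT-Sham and Fat1-TAC, and WT-Sham and WT-TAC overlapped each other.

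**Figure D3:**
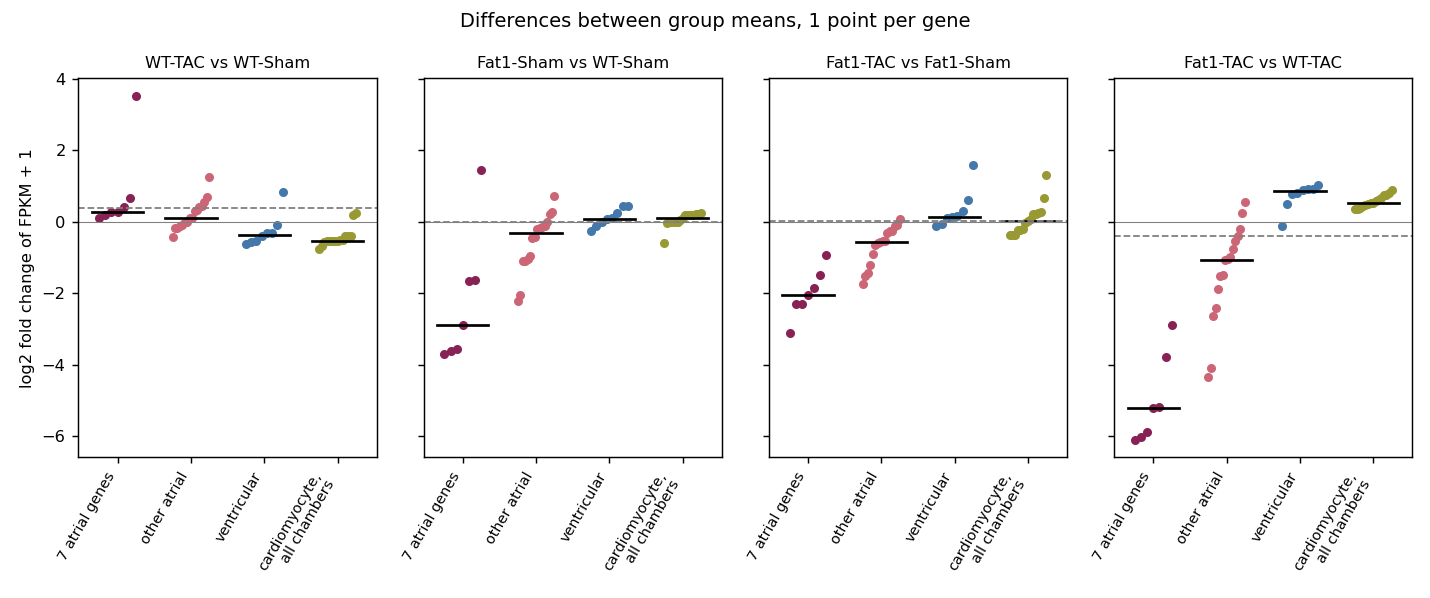
Difference of group means in log2(FPKM + 1) for the 7 atrial genes, other atrial genes, ventricular chamber genes and general cardiomyocyte genes in 4 comparisons, 1 point per gene. Solid bars are list medians and the dashed line is the median of all 14442 genes tested. In Fat1-TAC against WT-TAC the 7 genes have a median of -5.20 and the ventricular genes one of 0.85.

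Other genes with higher expression in the atrium than in the ventricle formed a list of 17, of which 16 were tested. Between the TAC groups, 13 of the 16 were lower in both Fat1-TAC libraries and 1, the potassium channel gene Kcna5, was higher, beside 57.1% of all genes lower and 9.33% higher. Their median log2 difference was -1.07, beside -0.40 for all genes, and it lay between -0.58 and -1.62 with other scalings. None passed the limma call or that of limma-voom. In limma 10 of the 16 had an unadjusted p under 0.05, beside 4253 of all 14442 genes tested. With only the 4 TAC libraries in the fit 4 were called, without WT-TAC2 7 were, and without either Fat1-Sham library 1 was. The largest difference was that of Nppa, the gene of atrial natriuretic peptide, with -4.34 (SE 1.05, limma adjusted p = 0.134). Nppa measured 106 and 259 FPKM in WT-Sham, 299 and 241 in WT-TAC, 128 in Fat1-Sham1, 9.04 in Fat1-Sham2, and 13.6 and 11.1 in Fat1-TAC. Its low libraries were thus the same 3 as those of the 7 genes, and both sham groups were split, although its highest library was WT-TAC1. In the other 3 comparisons the list had medians of 0.10 (WT-TAC against WT-Sham), -0.56 (Fat1-TAC against Fat1-Sham) and -0.32 (Fat1-Sham against WT-Sham). The medians of all genes were 0.39, 0.03 and -0.02 in that order. In each comparison, 0 genes of the list were called by limma or limma-voom. In limma 0, 2 and 1 of its genes had an unadjusted p under 0.05, beside 3973, 373 and 180 of all genes in that order. Relative to Myl7, Nppa was higher in the low libraries, at 74.3% to 94.0%, than in the other 5, at 13.3% to 28.9%.

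The kinase genes Sbk3 and Sbk2 and the lipid-binding protein gene Stard10 behaved alike. Sbk3 was at 16.0 to 85.6 FPKM in the WT libraries, 33.2 in Fat1-Sham1, and 1.5, 1.87 and 1.69 in Fat1-Sham2, Fat1-TAC1 and Fat1-TAC2 (log2 difference of the TAC groups -4.10, SE 1.19, limma adjusted p = 0.157). Sbk2 gave -2.63 (SE 0.62, adjusted p = 0.131) and Stard10 -2.41 (SE 0.63, adjusted p = 0.143) in the same limma fit. Pam, which encodes the enzyme that amidates peptide hormones and is abundant in atrial granules, kept 318.5 to 352 FPKM in the 3 low libraries and reached 1573 in WT-Sham2. Gja5 (connexin 40) and the potassium channel gene Kcnj3 were also lowest in those 3 libraries, at 2.67 to 3.22 and 11.6 to 13.7 FPKM. For Tbx5, a transcription factor gene, they stood at 9.20 to 11.4 FPKM, but WT-Sham1 was no higher at 9.99. Other genes of the list did not follow. Nppb, the gene of B-type natriuretic peptide, was highest in Fat1-Sham2 at 418 FPKM and between 175 and 284 elsewhere. Kcna5 was lowest in WT-TAC1 at 4.93 FPKM and between 6.93 and 13.2 elsewhere, and Chrm2, the muscarinic receptor gene, lay between 27.8 and 49.1 in all 8.

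Ventricular chamber genes differed far less between libraries. Of 8 tested, 6 were higher in both Fat1-TAC libraries than in both WT-TAC libraries, beside 9.33% of all genes, with a median log2 difference of 0.85. Here 0 were called in limma or limma-voom. In limma 6 had an unadjusted p under 0.05, beside 4253 of all 14442 genes. Myl2 was higher by 1.02 (SE 0.42, adjusted p = 0.167), the largest value of the list. The library WT-TAC1 bore on this, since the median was 0.34 without it and 1.32 without WT-TAC2. Scaled to cardiomyocyte genes, it was 0.29. In the other 3 comparisons the median of the list lay between -0.37 and 0.14, and that of all genes between -0.02 and 0.39. Nodal and conduction genes, such as Hcn4 and Tbx3, had a median of -0.24 over 8 tested genes in Fat1-TAC against WT-TAC, beside -0.40 for all genes. In limma 0 were called and 3 had an unadjusted p under 0.05, beside 4253 of all 14442 genes, and limma-voom called 0. That median was 0.08 with median-of-ratios scaling and 0.34 with quantile normalization, so its direction was not settled. Without WT-TAC1 1 of the 8 was called, without WT-TAC2 2 were, and with scaling to cardiomyocyte genes 1 was. Shox2, a gene of the sinus node, was at 1.21 to 2.93 FPKM in the WT libraries and at 0.835 in Fat1-Sham1. It was at 0.234 to 0.336 in the 3 libraries where the atrial genes were low. Cntn2 was lowest there as well, at 1.53 to 2.47 FPKM. Hcn4 and Tbx3 were instead highest in Fat1-Sham2, at 3.48 and 5.25 FPKM, and Cacna1g and Smoc2 in Fat1-TAC2, at 4.15 and 27.7. Tbx18 and Isl1 overlapped between these 3 and the remaining libraries. Isl1, with the lowest difference at -1.83, was at 6.89 and 1.42 FPKM in the WT-TAC libraries and at 0.413 or less elsewhere.

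**Figure D4:**
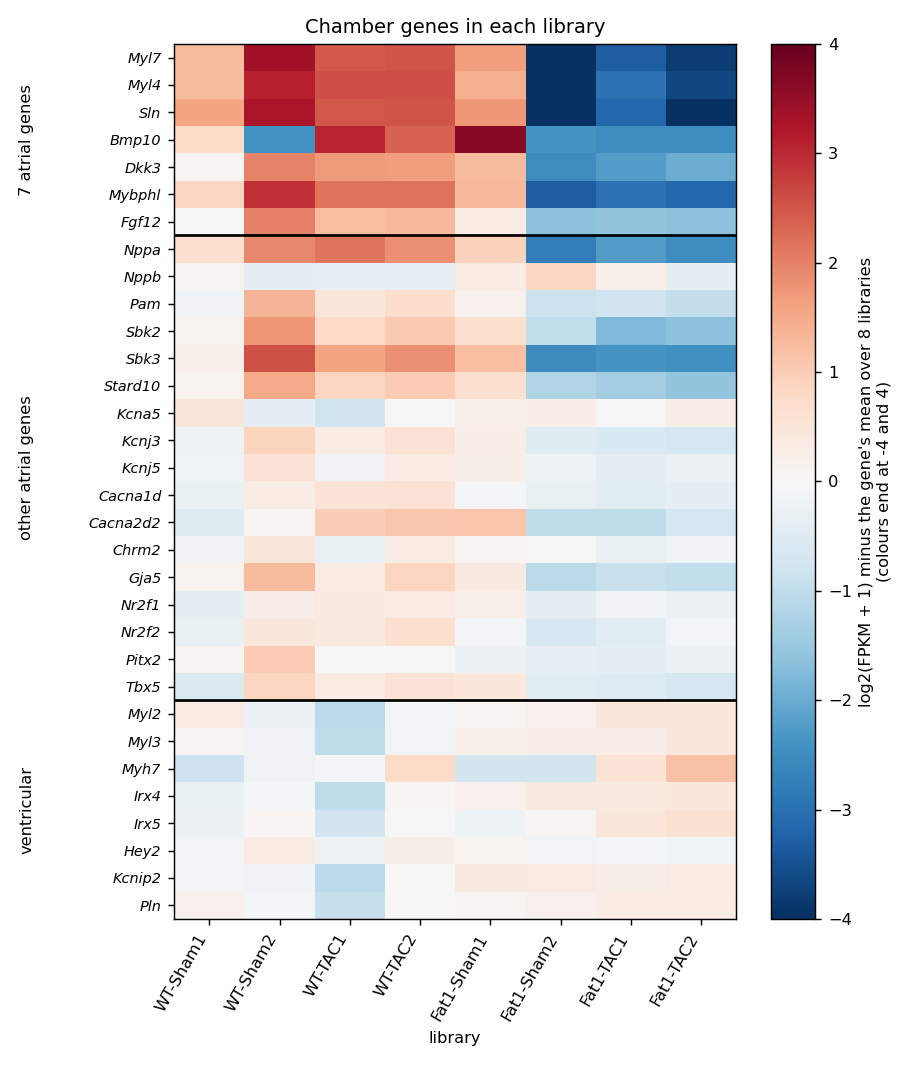
log2(FPKM + 1) minus each gene's mean over the 8 libraries for the 7 atrial genes (top), 17 other atrial genes (middle) and 8 ventricular chamber genes (bottom), red above and blue below the mean, with colours ending at 4 and -4. The 3 libraries Fat1-Sham2, Fat1-TAC1 and Fat1-TAC2 are blue for most atrial genes, and Nppb and Kcna5 are exceptions.

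The pathways in which the 7 genes act were read from the same limma fit, in which none of their genes was called in any of the 4 comparisons. Of 14 genes of the light chain and myosin-binding family, 12 were tested and 0 were called in Fat1-TAC against WT-TAC (limma, median -0.09). Of these 12, 7 had an unadjusted p under 0.05, beside 4253 of all 14442 genes in this comparison. The extremes were Myl2 at 1.02 and Mylpf, the fast skeletal light chain, at -1.79. The value of Mylpf rests on WT-TAC1, with 65.4 FPKM, since WT-TAC2 had 1.15 and the Fat1-TAC libraries 2.96 and 2.03. Of 6 genes of the calcium pump and its small regulators, 5 were tested, 0 were called and 3 had an unadjusted p under 0.05. Pln was at 0.77 and Atp2a1, the skeletal pump, at -2.06. Atp2a1 was likewise highest in WT-TAC1, at 14.6 FPKM, whereas WT-TAC2 had 1.04 and the Fat1-TAC libraries 0.283 and 0.424. Receptors and targets of BMP10 numbered 13 tested of 15, with 0 called and 5 at an unadjusted p under 0.05. Their median was -0.34, beside -0.40 for all genes in this comparison. They ran from Eng at 0.20 to Id2, a target gene of BMP signalling, at -1.48. The receptor Acvrl1 lay between 20.0 and 26.3 FPKM and the receptor Bmpr2 between 11.8 and 19.1 in all 8 libraries, while Bmp10 itself ran from 0.0532% to 305% of Acvrl1. Of 8 Dickkopf and Wnt co-receptor genes 3 were tested (0 called, 1 at an unadjusted p under 0.05), with Lrp6 lowest at -0.64. Of 8 FGF homologous factor and sodium channel genes 7 were tested (0 called, 1 at an unadjusted p under 0.05). They ran from Scn4b at 0.52 to Fgf14 at -1.01. For Fgf14 the WT-TAC1 library had 3.28 FPKM, whereas WT-TAC2 had 1.08 and the Fat1-TAC libraries 0.647 and 0.341. Fgf13 lay between 29.1 and 41.3 FPKM in all libraries. In the other 3 comparisons, between 0 and 7 genes of each list had an unadjusted p under 0.05, and limma-voom called 0 of these genes in all 4. Of all genes, 3973 had such a p for WT-TAC against WT-Sham, 373 for Fat1-TAC against Fat1-Sham and 180 for Fat1-Sham against WT-Sham. Without WT-TAC2, the medians of the 5 lists in Fat1-TAC against WT-TAC were -0.09, 0.04, -0.41, -0.69 and -0.03, beside -0.57 for all genes. Some genes of each list were called in that fit, in which WT-TAC1 alone stands for its group. With median-of-ratios scaling the 5 medians were 0.29, 0.11, 0.09, 0.17 and 0.31, beside -0.01 for all genes, so their direction was not settled. Myl9, a smooth muscle light chain gene named here after its values were seen, was at 58.9 FPKM in WT-Sham1, 52.8 in Fat1-Sham2 and 61.6 and 62.9 in the Fat1-TAC libraries, against 117 to 244 in the other 4.

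The genes whose pattern was most like the mean of the 7 were sought among 13623 genes outside them, by Pearson's r of log2(FPKM + 1) with the mean standardised level over the 8 libraries. Nppa came first with r = 0.996 (Spearman's rho 0.976), followed by Mlana, Tmem163, Sbk3, Ucp1, Stard10, Lmntd1, Hamp, Rgs2 and Tmem45a, the last with r = 0.967. The libraries fall into a high and a low cluster, and these coefficients are a description of the 10 genes with the highest values out of 13623. Mlana, a pigment cell gene, was at 4.08 to 10.3 FPKM in the 5 high libraries, at 0.172 in Fat1-TAC1 and at 0 in Fat1-Sham2 and Fat1-TAC2. Hamp, the gene of hepcidin, which regulates iron, was at 8.09 to 42.1 FPKM in the high libraries and at 0.538 or less in the others. Ucp1, the uncoupling protein of brown fat, was at 12.0 to 102 FPKM in the high libraries and at 0.0313, 0 and 0.943 in Fat1-Sham2, Fat1-TAC1 and Fat1-TAC2.

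Genes of other cell types also differed between these libraries, and their part in the levels of the atrial genes was not tested. The summed level of 4 of 4 adipocyte genes was 65.6 and 109 FPKM in WT-Sham, 276 and 355 in WT-TAC, 122 and 25.7 in Fat1-Sham, and 2.01 and 110.0 in Fat1-TAC, with none at 0. It was thus low in Fat1-Sham2 and Fat1-TAC1 but not in Fat1-TAC2, where the atrial genes were low as well. The 4 smooth muscle genes summed to 60.6 and 268 FPKM in WT-Sham, 197 and 267 in WT-TAC, 156 and 132 in Fat1-Sham, and 71.2 and 56.1 in Fat1-TAC, with none at 0. The 6 autonomic neuron genes summed to 3.11 and 4.19 in WT-Sham, 6.08 and 6.02 in WT-TAC, 3.17 and 1.62 in Fat1-Sham, and 2.18 and 2.15 in Fat1-TAC. Th was at 0 in WT-Sham1 and in the 3 libraries with low atrial genes. Phox2a overlapped between those 3 (0.230, 0.915 and 0.595 FPKM) and the other 5, with 0.254 in WT-Sham1. Dbh and Prph, the 2 of the 6 that passed the filter, overlapped singly as well. The autonomic neuron sums did not overlap between the 3 libraries and the other 5, whereas the adipocyte and smooth muscle sums did. The 5 fibroblast genes summed to 449 and 708, 737 and 749.5, 439.9 and 402, and 443 and 450.3 FPKM in the same order of libraries, of which Col1a2 was called lower in Fat1-TAC than in WT-TAC (-1.26, SE 0.24, limma adjusted p = 0.0901). The call of Col1a2 held in 4 of 17 alternatives, with adjusted p from 0.0121 (without WT-TAC2) to 0.470 (without Fat1-TAC1), and was lost with limma-voom and without WT-TAC1, Fat1-TAC2 or either Fat1-Sham library. The 4 genes of endothelium and endocardium were steadier, at 162 to 234 FPKM.

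Lung airway genes were high mainly in the WT-TAC libraries. The 6 club and airway cell genes summed to 1.23 and 2.73 FPKM in WT-Sham, 1523 and 4032 in WT-TAC, 50.7 and 0.639 in Fat1-Sham, and 0.880 and 1.12 in Fat1-TAC, and Scgb3a2 was at 0 in both WT-Sham libraries, Fat1-Sham2 and both Fat1-TAC libraries. In limma all 6 were called, as higher after TAC in WT hearts and as lower in Fat1-TAC when set against WT-TAC, and limma-voom called 2 of them in the second comparison and 0 in the first. They were near 0 in both WT-Sham libraries, in which Myl7 was at 456 and 1945 FPKM. Of the 7 alveolar genes, Sftpd was called in both of these comparisons in limma and in neither with limma-voom. Its call held in 10 of 16 alternatives in the first and in 8 of 16 in the second, and was lost without either WT-Sham library in both and without either Fat1-TAC library in the second. Of the 5 mesothelium genes, Msln was called lower in Fat1-TAC than in WT-TAC (-1.53, SE 0.29, limma adjusted p = 0.0929). The call of Msln held in 4 of 17 alternatives, with adjusted p from 0.00744 (without WT-TAC2) to 0.470 (without Fat1-TAC1), and was lost with limma-voom and without any 1 library of Fat1-TAC, Fat1-Sham or WT-Sham. The 8 fast skeletal muscle genes summed to 181 FPKM in WT-TAC1 and to 11.1 or less elsewhere. The airway sums of the 3 libraries with low atrial genes were thus all under those of the other 5, by a narrow margin (1.12 against 1.23 FPKM), whereas the skeletal muscle sums of the same libraries overlapped. The part of either in the levels of the atrial genes was not tested.

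**Figure D5:**
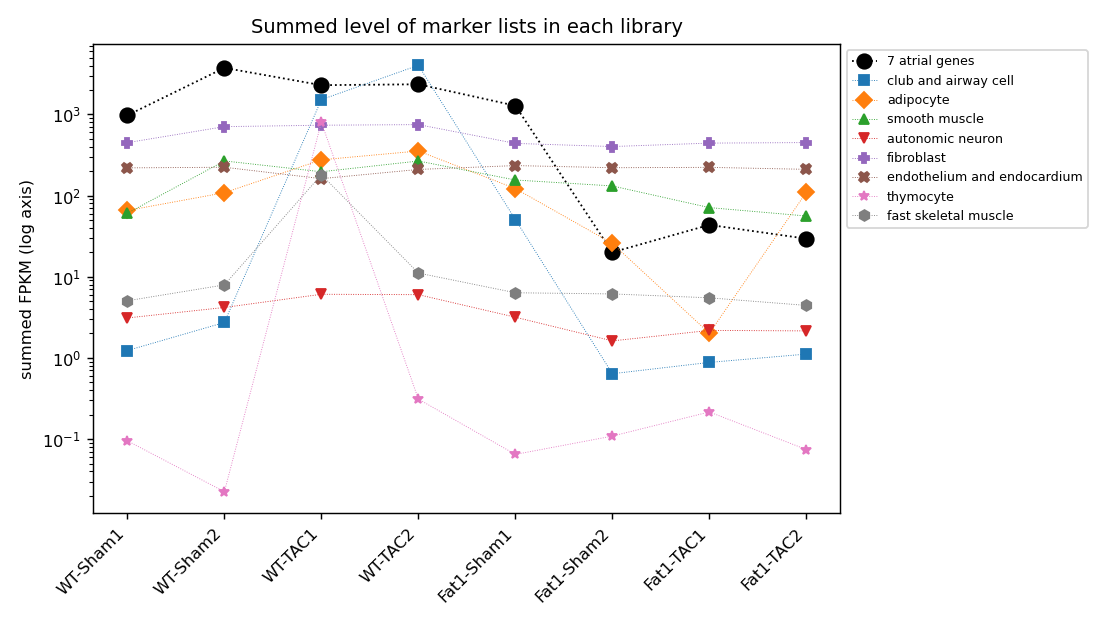
Summed FPKM (log axis) of the 7 atrial genes and of 8 marker lists in the 8 libraries, with dotted lines only to join points of 1 list. The atrial sum falls from 975 FPKM or more in 5 libraries to 20.0, 43.6 and 29.5 in Fat1-Sham2, Fat1-TAC1 and Fat1-TAC2, the adipocyte sum is low in only 2 of those, and the fibroblast sum stays between 402 and 749.5.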

How the data were processed

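RNA of 8 mouse hearts, 2 per group, was sequenced, and the labels call the libraries of a group independent samples. The authors deposited 1 table of FPKM values, with 1 column per library. The submitters' processing notes name HISAT2 and the mm10 (GRCm38) build, and the counting program and annotation are not given in the sources used here. The 7 genes and all gene lists were chosen with earlier results of these data known.

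Whole fragments were recovered from the deposited FPKM values: 100% of the 25929 listed genes came out whole at a single length, within 0.01 fragments or 5e-08 of the count. The length was the median of the annotated transcripts for 11291 genes, another annotated length for 291 and another whole length for 14347. Since a length was searched for that gave whole fragments, the 100% is no check of the recovery. Depths read from the values were 14163994 to 21218331 fragments per library. Blank lines (4) were dropped, and 77 genes had no symbol. Intervals are exact 95% Poisson intervals of these fragments, and ratios of fragments have exact binomial ones. Both cover counting error only, and a floor of 3 fragments was used.

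The 14442 genes that reached 1 FPKM in at least 2 libraries were fitted as log2(FPKM + 1) with limma 3.58.1 (R 4.3.3), as 4 group means with a trended prior variance. Calls needed an adjusted p (Benjamini-Hochberg) under 0.1 and a fold over 1.5. The fit was first tested on simulated data with the same spread in all libraries. The real groups differed in spread, so that test cannot show how the fit behaves on them. The p-values measure the spread between 2 libraries a group. Alternatives were a pseudocount of 0.1, no filter, a mean of at least 5 FPKM, median-of-ratios, cardiomyocyte gene and quantile scaling, only the 2 groups compared, a replicate block, limma-voom on recovered fragments, and each library left out. Named genes were the 7, their partners, Nppa, the called genes and extremes of each list, and the 10 genes most like the 7 among those tested with a mean of 1 FPKM or more. Other list members are named after their values were seen. Gene positions are those of GENCODE M21. Promoter windows are the 250 bases before the start, from RefSeq.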

Additional observations from a re-analysis of the deposited data

Results flagged for a closer look

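The interaction of genotype and surgery passed the limma call for 1 gene of the lists described above, Scgb3a2, a secretoglobin gene of airway club cells. Its log2 interaction of genotype and surgery was -8.13 (limma adjusted p = 0.0659 over all 14442 genes tested). The call did not hold in most alternatives: 5 of 16 kept it, with adjusted p from 0.00319 to 0.567. It was lost with limma-voom, a mean of at least 5 FPKM, median-of-ratios scaling, a pseudocount of 0.1, quantile normalization and a replicate block, and without Fat1-Sham1, either WT-Sham library or either Fat1-TAC library. The size of the difference rests on groups at 0 FPKM and so on the pseudocount, and is no fold. Scgb3a2 was at 0 in both WT-Sham libraries, Fat1-Sham2 and both Fat1-TAC libraries, at 2.82 FPKM in Fat1-Sham1, and at 92.9 and 219 FPKM in WT-TAC1 and WT-TAC2. The gene is not one of the heart, and its part in the levels of the atrial genes was not tested.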

How the results depend on the processing

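The median difference of the 7 atrial genes in Fat1-TAC against WT-TAC was -6.12 with limma-voom, -4.83 with median-of-ratios scaling, -6.12 with a pseudocount of 0.1 and -5.69 with cardiomyocyte scaling, and lay between -5.53 and -5.20 with 1 library left out. All 118 values of single genes in this comparison, over the 17 alternatives, were negative, from -10.96 to -2.38. The other medians rested on single sham libraries: with 1 library left out they ranged from -4.75 (without Fat1-Sham2) to 0.40 (without Fat1-Sham1) for Fat1-TAC against Fat1-Sham, from -5.17 to -0.64 for Fat1-Sham against WT-Sham, and from -0.73 to 1.31 for WT-TAC against WT-Sham. Of the 7 genes, 7 were called in Fat1-TAC against WT-TAC with only the 2 groups compared and without WT-TAC2, 5 without either Fat1-Sham library, and 0 otherwise.

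Counts over all genes were unstable, and the cause was not tested. For WT-TAC against WT-Sham the 135 calls became 6 (limma-voom), 9 (mean of at least 5 FPKM), 23 (median-of-ratios), 293 (no filter), 33 (pseudocount 0.1) and 11 (quantile), and 0 to 7408 with 1 library left out. For Fat1-TAC against WT-TAC the 206 calls became 92, 15, 20, 350, 33 and 13 in the same order, 41 with only the 2 groups compared, and 6 (without Fat1-TAC1) to 7837. For the interaction the 10 calls became 0, 0, 1, 70, 0 and 0 in that order, 23 with cardiomyocyte scaling, and 0 to 6679. For Fat1-TAC against Fat1-Sham the 1 call became 0 with limma-voom, a mean of at least 5 FPKM, no filter or only the 2 groups, and 0 to 7 with 1 library left out. The highest counts of the other 3 were without WT-TAC2, and the 0 of WT-TAC against WT-Sham came without either WT-Sham library. In these fits the lone library is assumed to vary like the other groups. Of the other atrial genes, 4 were called in Fat1-TAC against WT-TAC with only the 2 groups compared, 0 to 7 with 1 library left out, and 0 to 1 in WT-TAC against WT-Sham. Ventricular genes gave 0 to 6 calls in WT-TAC against WT-Sham and 0 to 7 in Fat1-TAC against WT-TAC.

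Deviations from the group mean, compared between libraries with the same replicate number, correlated at -0.047, -0.135, -0.113 and -0.041 in the 4 comparisons. With 2 libraries a group, these values cannot show whether equal numbers share a batch. A replicate block gave 52 calls for WT-TAC against WT-Sham, 52 for Fat1-TAC against WT-TAC, 0 for the interaction and an unchanged count of 1 for Fat1-TAC against Fat1-Sham. A mean of at least 5 FPKM drops Fgf12. Genes near 10 fragments, such as Fgf12 and Mybphl in the low libraries, cannot be ordered at this depth.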

Other observations

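Because Bmp10 departed from the other 6 atrial genes, the genes whose log2(FPKM + 1) followed it most closely over the 8 libraries were listed, a step chosen after its values were seen. Of 13629 genes ranked, the first 5 were Ston1 (r = 0.977), Gm5781 (0.947), Sfrp5 (0.940), Cd207 (0.928) and Vsig4 (0.917). The coefficient does not measure the size of a change: Ston1 lay between 4.70 and 6.95 FPKM and Gm5781 between 0.622 and 1.82. Sfrp5, which encodes a secreted Wnt antagonist, was at 2.23 and 2.46 FPKM in the WT-Sham libraries, 9.93 and 8.53 in the WT-TAC libraries, 10.7 in Fat1-Sham1, and 0.727, 0.761 and 0.667 in Fat1-Sham2, Fat1-TAC1 and Fat1-TAC2. Unlike Myl7, it was not highest in WT-Sham2. Cd207 and the macrophage gene Vsig4 were highest in WT-TAC1 and Fat1-Sham1, respectively, at 4.21 and 5.98 FPKM. These coefficients are the highest of many and rest on 8 libraries.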
